A study of Homo sapiens with 13 samples.

Results

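Human lipoxygenase genes were followed on 7 array probes for 6 genes (ALOX15B, ALOX15, ALOX12, ALOX12B, ALOXE3 and ALOX5), of 42405 probes and 21789 gene symbols on the array. The members are all probes whose symbol in the array files is one of these 6, and they take up 20 spots per array. The family was chosen by the UNC0638 ratios, since ALOX15B had the largest mean rise of any tested probe there. The UNC0638 values of the members are therefore given as a description, with no test.

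The cells were HEK293T, derived from human embryonic kidney and expressing SV40 large T antigen, and their total RNA was hybridized to 13 2-channel arrays. Cells given 1 µM UNC0638 for 48 h were set against cells given DMSO, the solvent, in 5 biological replicates on 7 arrays. UNC0638 blocks the enzymes G9a (EHMT2) and GLP (EHMT1), which methylate lysine 9 of histone H3. Cells transfected with WIZ siRNA, against a zinc finger partner of these enzymes, were compared at 72 h with control siRNA cells, on 4 arrays of 2 biological replicates. Cells transfected with G9a siRNA were compared at 72 h with control siRNA cells, on 2 arrays, 1 for each of 2 biological replicates. Each WIZ siRNA replicate and UNC0638 replicates 1 and 2 were hybridized in both dye orientations, and all other replicates only with the treated RNA in Cy5. All siRNAs were delivered with DharmaFECT 4, and whether both knockdowns used the same control RNA is not stated. In bulk RNA of this kind, fewer cells of a type and less RNA per cell cannot be told apart.

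Lipoxygenases are iron enzymes that insert molecular oxygen into polyunsaturated fatty acids and leave a lipid hydroperoxide. ALOX15B, ALOX15 and ALOX12 act mainly on arachidonic and linoleic acid in macrophages, airway and prostate epithelium, skin and platelets. ALOX12B and ALOXE3 work one after the other on skin ceramides to build the water barrier of the epidermis. ALOX5 of leukocytes makes the precursor of all leukotrienes, with help from the membrane protein encoded by ALOX5AP.

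The probes lie in different parts of their genes, and their sequences are shown because each value below is read through 1 short stretch of a transcript. Probe coordinates are those of the array files on build 37.1. The ALOX15B probe lies at chr17:7952182-7952241 on the plus strand, 201 bases before the end of the annotated gene. The ALOX12B probe lies at chr17:7978916-7978975 and the ALOXE3 probe at chr17:8006673-8006732, both on the minus strand. The ALOX12 probe lies at chr17:6913910-6913969 on the plus strand, 85 bases before the gene's end. The ALOX15 probe A_23_P55373 lies at chr17:4534930-4534989 on the minus strand, 709 bases before the gene's end. The ALOX5 probe lies at chr10:45941417-45941476 on the plus strand, 85 bases before the gene's end. The second ALOX15 probe, A_33_P3361348, is named only. All sequences run 5′ to 3′, whole for 3 probes of 60 bases and as a stretch of 30 bases for the 3 probes closest to a gene's end, and the capitals mark the longest run that a probe shares with any other of the 6.
ALOX15B: ttttgttttgcgTTTTACagccgtgggggg
ALOX12B: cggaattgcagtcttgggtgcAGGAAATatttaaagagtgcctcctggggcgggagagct
ALOXE3: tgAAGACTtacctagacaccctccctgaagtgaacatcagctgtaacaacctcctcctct
ALOX15: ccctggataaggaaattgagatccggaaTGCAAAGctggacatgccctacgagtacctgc
ALOX12: cTGCAAAGactagatccttttttacgcttt
ALOX5: attcttgttggaGACATGggatgattattt
These longest shared runs are 6 or 7 bases. None of the 6 probes shares 16 bases in a row, on either strand, with any other of the 18553 probes whose sequence the files give.

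By the bands and coordinates in the files, ALOX15B, ALOX12B, ALOXE3 and ALOX12 lie in 17p13.1, ALOX15 in 17p13.3 and ALOX5 in 10q11.2. The ALOX12B and ALOXE3 probes start 26.7 and 54.5 kb from the ALOX15B probe, whereas the ALOX12 probe starts 1.04 Mb and the ALOX15 probe 3.42 Mb away. ALOX15B, ALOX12B and ALOXE3 are thus the close cluster, and in gene order only the pseudogene ALOXE3P1, an uncharacterized locus and a microRNA gene stand among them in the RefSeq table (GRCh38.p14, used for gene order alone).

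Unless called a level, each value is a log2 ratio within an array, with the treated RNA over its control. The 2 arrays of a dye swap count as 1 replicate, by their mean. The arrays fell into 2 sets by their pixel noise, set 1 with the WIZ siRNA arrays and those of UNC0638 replicates 1 and 2 (8 arrays), and set 2 with the G9a siRNA arrays and those of UNC0638 replicates 3 to 5 (5 arrays). WIZ RNA was at 23.1% of control under WIZ siRNA (log2 ratio between -2.33 and -1.93 on the 4 arrays), and EHMT2 RNA was at 31.6% under G9a siRNA (between -1.67 and -1.65 on the 2 arrays). These 2 arrays share 1 dye orientation. On the 4 WIZ siRNA arrays, which hold both orientations, EHMT2 ran from -0.56 to 1.23. The median spot brightness was 194 to 415 in Cy3 and 151 to 638 in Cy5, over backgrounds of 28 to 30 and 45 to 68. All 12 markers of HEK293 cells on the list used were well above background in every RNA group. All 7 lipoxygenase probes were among the 34619 that passed the filter on dim probes.

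ALOX15B, which oxygenates arachidonic acid and is known from skin, prostate, lung and macrophages, had the largest ratios of the family. Its ratio was 3.30, 2.57, 1.96, 1.93 and 2.46 in UNC0638 replicates 1 to 5, a mean of 2.44 ± 0.559 (SD, n = 5) or 5.44-fold. It was higher with UNC0638 than with DMSO on all 7 arrays, in either dye orientation. The raw signals show the same order: on the first array of replicate 1 the spots averaged 2587.5 in UNC0638 RNA over a background of 29.5, and 327.5 in DMSO RNA over a background of 72.0. On the array of replicate 3 they averaged 865.5 over 46.5 in UNC0638 RNA and 184.0 over 30.5 in DMSO RNA. The probe was well above background in both RNAs of all 7 arrays, so a low signal was measured in DMSO-treated cells too. On these arrays 57.5 to 92.7% of all probes were well above background in DMSO RNA. Whether the low signal is ALOX15B RNA was not tested.

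**Figure D1:**
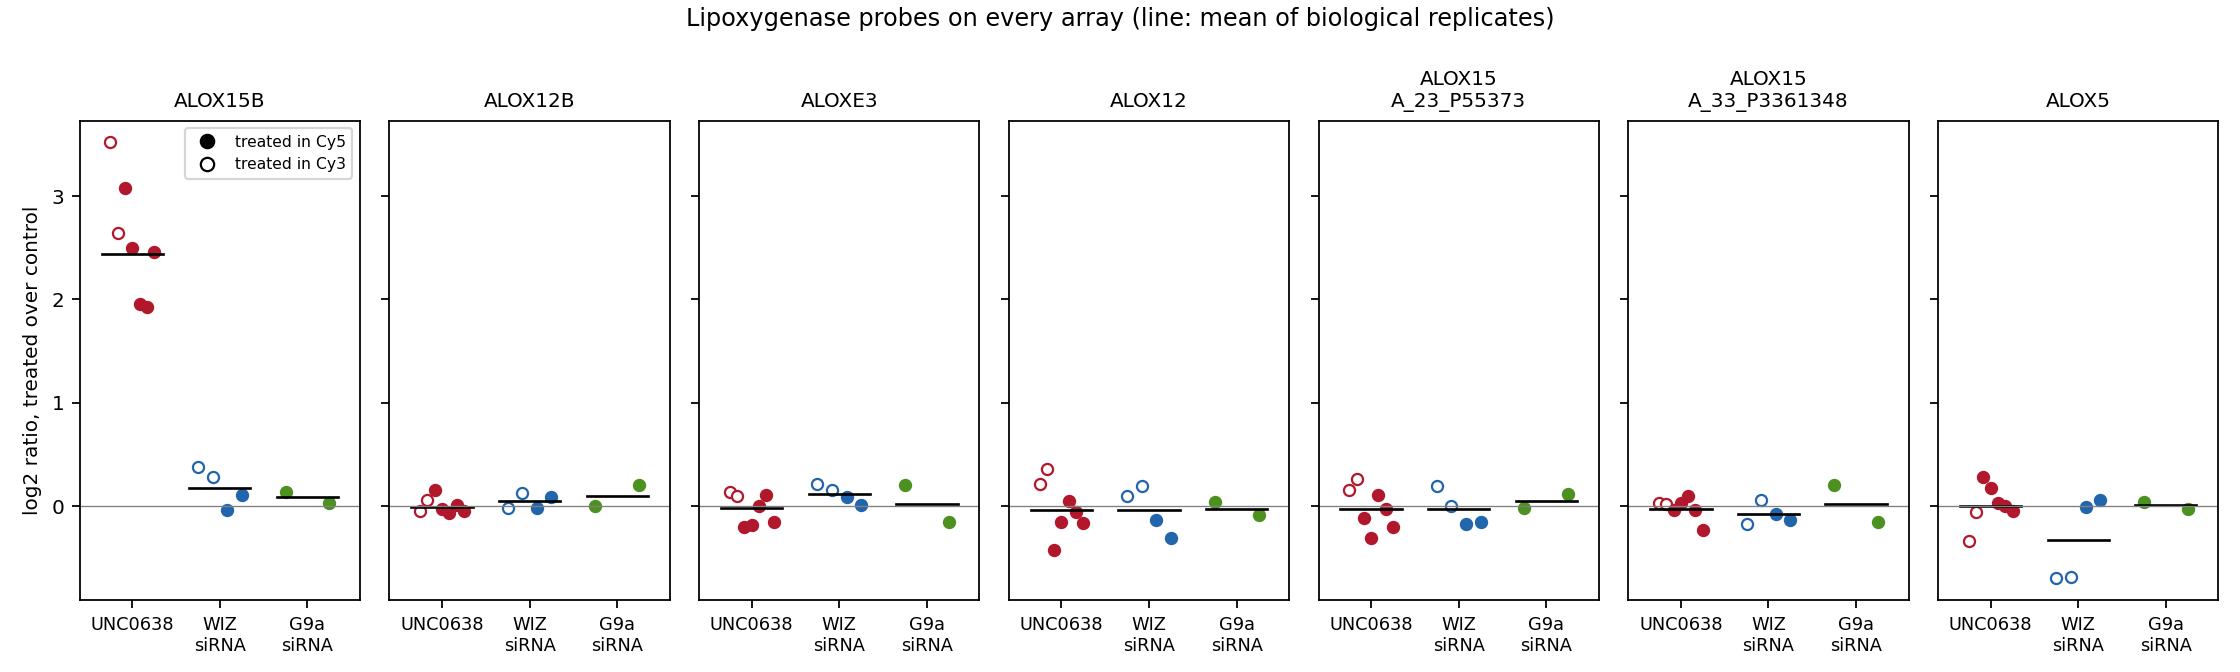
Log2 ratio of treated over control RNA for the 7 lipoxygenase probes on all 13 arrays (filled points, treated RNA in Cy5; open points, treated RNA in Cy3), with a line at the mean of biological replicates. ALOX15B lies between 1.93 and 3.52 on the 7 UNC0638 arrays, and every other probe stays within 0.70 of 0 on all arrays.

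On the normalized log2 scale, the ALOX15B level lay between 10.13 and 11.16 in UNC0638 RNA and between 7.63 and 8.37 in DMSO RNA over the 7 arrays. The 2 ranges did not overlap, which the choice of the gene fixes. The replicates differed in size within UNC0638. Replicates 1 and 2, on set 1, averaged 2.94 (7.66-fold), and replicates 3 to 5, on set 2, averaged 2.12 (4.33-fold). The lower replicate on set 1, at 2.57, lay just above the highest on set 2, at 2.46. On set 1 the levels were 10.15 to 11.16 in UNC0638 RNA and 7.63 to 7.94 in DMSO RNA, and on set 2 they were 10.13 to 10.70 in UNC0638 RNA and 8.17 to 8.37 in DMSO RNA. The part of the array set in this difference was not tested. The 2 ALOX15B spots of an array differed by a median SD of 0.0932 in their raw log2 ratio.

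**Figure D2:**
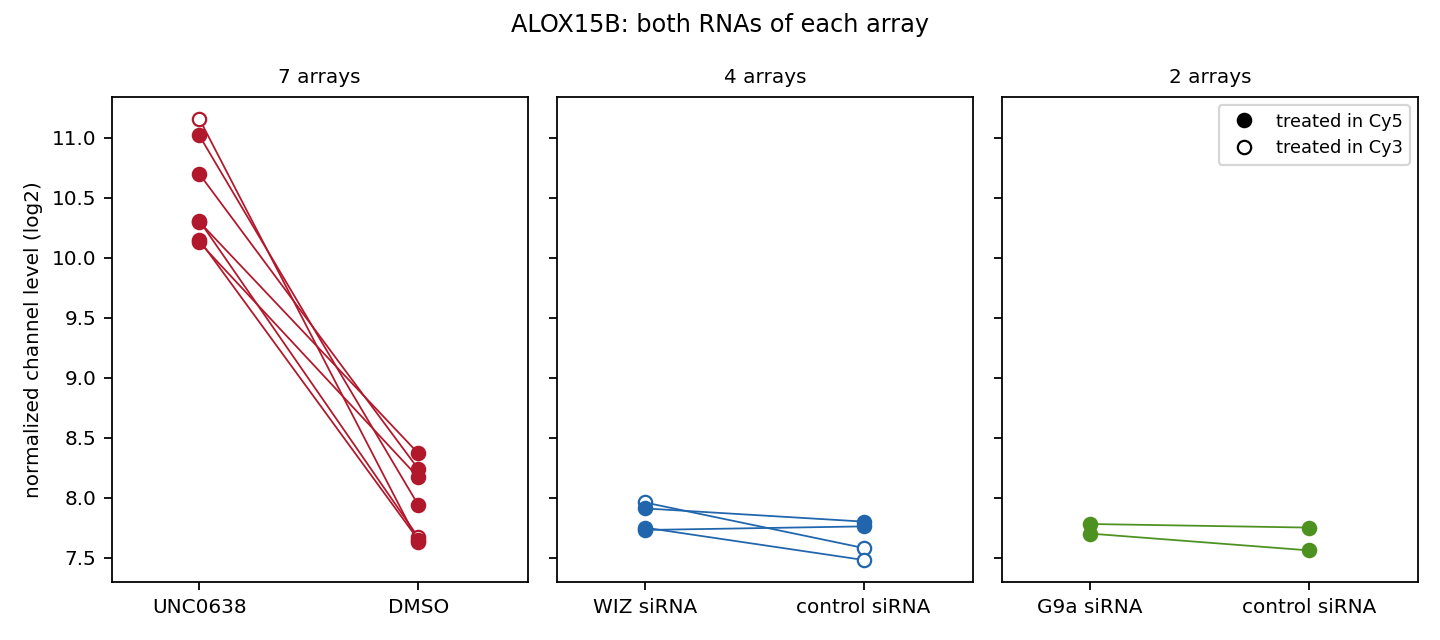
Normalized log2 channel level of ALOX15B in both RNAs of each array, treated left and control right, joined by array. UNC0638 levels (10.13 to 11.16) stand above DMSO levels (7.63 to 8.37), and levels after either siRNA lie at those of control siRNA.

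ALOX15B ranked first among the 34619 tested probes in UNC0638 replicates 1, 4 and 5 and second in replicates 2 and 3. The next probe by mean rise was that of MAT1A, the liver enzyme that makes S-adenosylmethionine, at 2.26, followed by the long noncoding RNA HULC at 1.87. These values chose the family and are a description.

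The siRNA treatments were not used in choosing the family, and there ALOX15B could be tested. The fit shares its spread over all treatments, so the UNC0638 replicates (SD 0.559) enter the SE of 0.267 of both siRNA means. Under WIZ siRNA its ratio was 0.38 and -0.0355 on the 2 arrays of replicate 1 and 0.28 and 0.11 on those of replicate 2, a mean of 0.18 ± 0.0148 (SD, n = 2 replicates). It did not pass the test (limma, adjusted p = 1.0), and the 95% interval ran from -0.42 to 0.78, that is from 0.748-fold to 1.72-fold. Fitted on the 2 WIZ siRNA replicates alone, which borrows no spread from the other treatments, the same mean passed (adjusted p = 0.0169). In that fit 8868 probes passed under WIZ siRNA, beside 176 in the main fit. Over all 21 alternative settings the adjusted p ran from 0.0169 to 1.0.

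Under G9a siRNA the ALOX15B ratio was 0.14 and 0.0281, a mean of 0.0847 ± 0.0801 (SD, n = 2), and it did not pass (limma, adjusted p = 0.844). The 95% interval was -0.52 to 0.69. The probe was not well above background in G9a siRNA RNA on either array, where raw spots averaged 118.5 and 104.5 over backgrounds of 49.5 and 47.0, and was well above it in control siRNA RNA on both. The G9a siRNA level is thus a bound, and no fold is read from it. Mean levels were 7.74 in G9a siRNA RNA and 7.65 in control siRNA RNA. G9a siRNA RNA was in Cy5 on both arrays. On set 2 the ALOX15B probe was well above background on 3 of 5 arrays in Cy5 and 5 of 5 in Cy3. Dye and treatment cannot be told apart in this split. The difference of G9a siRNA minus WIZ siRNA was -0.10 (95% interval -0.95 to 0.75, adjusted p = 0.89). UNC0638 was given for 48 h and the siRNAs for 72 h, and 2 replicates carry each siRNA mean.

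ALOX12B and ALOXE3, the skin barrier pair beside ALOX15B, stayed near 0 in every UNC0638 replicate. ALOX12B ratios in the UNC0638 replicates had their lowest value at -0.0706 and their highest at 0.055 (mean -0.0085 ± 0.0504 SD, n = 5). ALOXE3 ran from -0.15 to 0.11 (mean -0.021 ± 0.0929 SD, n = 5). The probe of ALOX12B was well above background on 6 of 7 arrays in UNC0638 RNA and 7 of 7 in DMSO RNA, so its ratio was measured. ALOXE3 was well above background on 4 of 7 arrays in each of these RNAs, all of them in set 1. In set 2 neither RNA was well above background, so no fold or bound is read there.

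Under WIZ siRNA, ALOX12B averaged 0.0468 (95% interval -0.12 to 0.22, adjusted p = 1.0) and ALOXE3 0.12 (95% interval -0.10 to 0.33, adjusted p = 0.976; limma, n = 2). All 4 WIZ siRNA arrays gave ALOXE3 above 0, at 0.21, 0.16, 0.0853 and 0.0129. Under G9a siRNA, ALOX12B had ratios of -0.0005 and 0.20 (mean 0.10, 95% interval -0.0732 to 0.27, adjusted p = 0.361). It was well above background on 1 of 2 arrays in G9a siRNA RNA and 2 of 2 in control siRNA RNA. G9a siRNA RNA was in Cy5 on both arrays. ALOXE3 was not well above background in either RNA of the G9a siRNA arrays, with levels of 7.07 in G9a siRNA RNA and 7.04 in control siRNA RNA. Once a trend on probe GC content was removed from each array, ALOX12B passed under G9a siRNA at 0.46 (adjusted p = 0.00462).

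ALOX15 and ALOX12, the lipoxygenases of eosinophils, airway cells and platelets, were at the edge of detection in these kidney cells. ALOX12 was well above background in 7 of 26 RNA measurements, all in the Cy3 channel of set 1. The 2 ALOX15 probes were above it in 9 and 8 of 26. In the UNC0638 replicates, ALOX12 ran from -0.16 to 0.10 (mean -0.0337), ALOX15 probe A_23_P55373 from -0.20 to 0.11 (mean -0.0239) and ALOX15 probe A_33_P3361348 from -0.23 to 0.10 (mean -0.0279; n = 5 each). The 2 ALOX15 probes gave like values in all 5 replicates, lowest in replicate 5, where neither was well above background in either RNA. The probes of ALOX12 and ALOXE3, also not well above background there, were lowest in that replicate too, at -0.16 and -0.15. In G9a siRNA replicates 1 and 2 the ALOX15 probes differed, at -0.0202 and 0.12 for A_23_P55373 and 0.20 and -0.15 for A_33_P3361348.

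Neither gene passed under an siRNA. ALOX12 averaged -0.0379 under WIZ siRNA (limma, adjusted p = 1.0). The ALOX15 probes averaged -0.0305 and -0.0772 there (both adjusted p = 1.0). In the G9a siRNA arrays none of the 3 probes was well above background in either RNA. With the GC trend removed, ALOX15 probe A_23_P55373 passed under G9a siRNA at 0.36 (adjusted p = 0.0199), although it was not well above background there. On dye-swapped arrays ALOX12 followed the dye: it was 0.21 and 0.36 with UNC0638 RNA in Cy3 and -0.42 and -0.15 with the same RNA in Cy5.

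ALOX5, the entry enzyme of leukotriene synthesis, stood near 0 with UNC0638, at a mean of 0.0025 ± 0.0442 (SD, n = 5; lowest -0.0463, highest 0.0632). Its probe stands on each array in 10 spots, whose raw log2 ratios had a median SD of 0.129. On the WIZ siRNA arrays, ALOX5 read -0.70 and -0.69 in replicates 1 and 2 with the WIZ siRNA RNA in Cy3. With the WIZ siRNA RNA in Cy5, the same replicates gave -0.0038 and 0.0592. After averaging, the 2 replicates lay close together at -0.35 and -0.31, whereas the orientations of each replicate lay far apart.

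The raw ALOX5 signals carry this. With WIZ siRNA RNA in Cy3, the spots averaged 90.0 and 109.1 in WIZ siRNA RNA over backgrounds of 29.3 and 29.9, and 231.5 and 257.5 in control siRNA RNA over 67.4 and 70.8. With WIZ siRNA RNA in Cy5, they averaged 172.1 and 180.3 over 67.3 and 64.4 in WIZ siRNA RNA, and 123.6 and 130.2 over 29.2 and 29.6 in control siRNA RNA. A fit with a dye term put the dye effect for ALOX5 at 0.449 between treated RNA in Cy5 and in Cy3. UNC0638 replicate 1 showed the same direction, at -0.34 with UNC0638 RNA in Cy3 and 0.28 in Cy5.

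**Figure D3:**
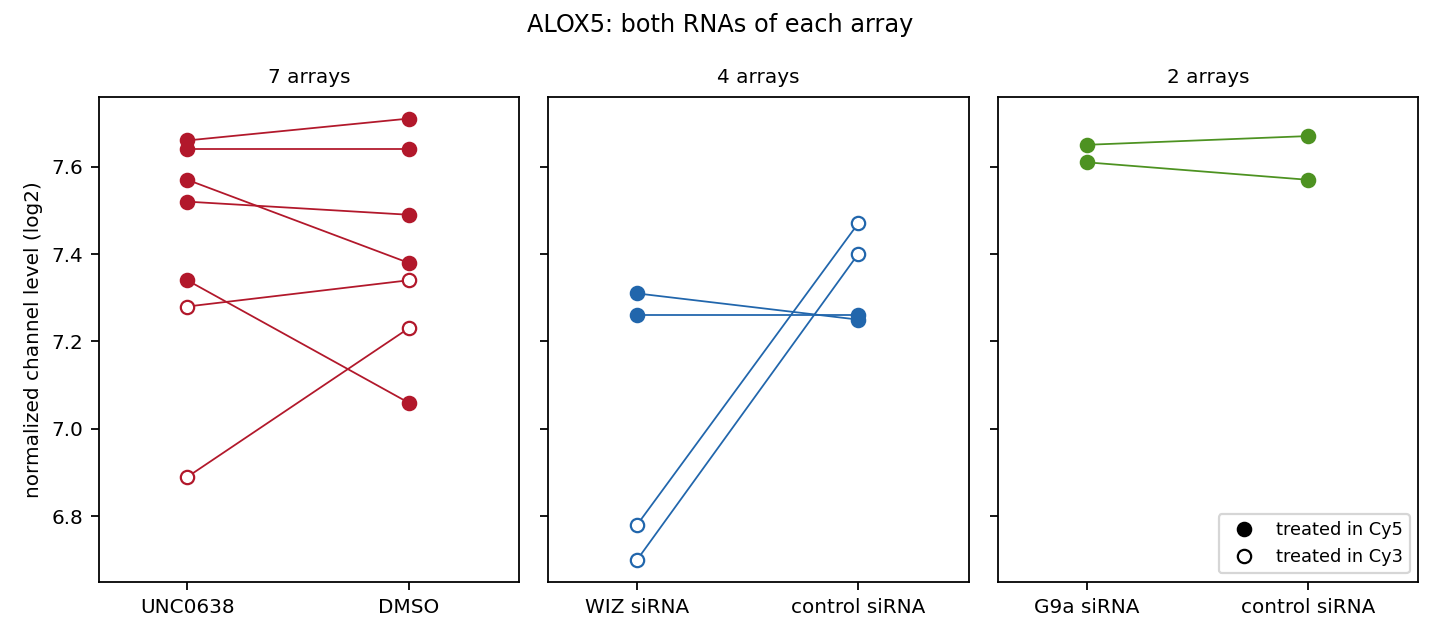
Normalized log2 channel level of ALOX5 in both RNAs of each array, treated left and control right. WIZ siRNA levels fall below control siRNA levels on the 2 arrays with WIZ siRNA RNA in Cy3 (open points, ratios -0.70 and -0.69) and lie at them on the 2 arrays with it in Cy5 (filled points, -0.0038 and 0.0592).

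The mean ALOX5 ratio under WIZ siRNA was -0.33 ± 0.0265 (SD, n = 2 replicates), 0.794-fold, with a 95% interval of -0.48 to -0.18. It did not pass after adjustment over all probes (limma, unadjusted p = 0.000627, adjusted p = 0.0785). It passed in 4 of 22 alternative settings, among them the dye term (-0.33, adjusted p = 0.0281) and set 1 alone (-0.33, adjusted p = 0.0112). Under WIZ siRNA 1204 probes passed with the dye term and 3508 in set 1 alone, beside 176 in the main fit. Under G9a siRNA, ALOX5 read 0.0417 and -0.0232 (limma, adjusted p = 0.932), with the probe not well above background in G9a siRNA RNA on either array. That RNA was in Cy5. On set 2 the ALOX5 probe was well above background on 1 of 5 arrays in Cy5 and 5 of 5 in Cy3.

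The difference of G9a siRNA minus WIZ siRNA was 0.34 for ALOX5 (95% interval 0.13 to 0.55) and passed (limma, adjusted p = 0.0328). This compares arrays of 1 orientation with arrays of both, and each siRNA lies in 1 array set. With the array set as a term, which the UNC0638 replicates in both sets allow, the difference was 0.37 and did not pass (adjusted p = 0.233). On arrays with treated RNA in Cy5 alone, the difference was -0.0184 (adjusted p = 0.948), and with a dye term it was 0.12 (adjusted p = 0.639). It also lost the threshold without either replicate of WIZ siRNA or of G9a siRNA, at 0.31 to 0.37.

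Read over the family, 0 of 7 probes passed under WIZ siRNA (limma; 1 at an unadjusted p below 0.05), where 0.508% of all 34619 probes did (0.0635% higher, 0.445% lower). Under G9a siRNA, 0 of 7 passed (0 at an unadjusted p below 0.05), where 33.8% of all probes did (15.0% higher, 18.8% lower). In the difference of G9a siRNA minus WIZ siRNA, 1 of 7 passed, on the positive side, where 20.4% of all probes did (8.85% higher, 11.5% lower). The median ratio of the 7 probes was -0.0305 under WIZ siRNA and 0.0269 under G9a siRNA, beside medians of 0.0153 and -0.013 over all probes. The share of calls under G9a siRNA rests on replicate 2: without it, 0 probes passed, and without replicate 1, 7187 did.

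The next comparison asks whether genes beside ALOX15B moved with it. Within 100 kb of the ALOX15B, ALOX12B or ALOXE3 probe, 4 probes of other genes had coordinates, and all 4 were tested. They measure PER1, a repressor of the circadian clock, VAMP2, a fusion protein of synaptic vesicles, TMEM107 of the ciliary transition zone, and BORCS6 of a lysosome-positioning complex. Under UNC0638 none passed (limma; 1 at an unadjusted p below 0.05; 3.24% of all probes passed, 1.57% higher and 1.67% lower), with ratios of -0.40 for PER1, -0.0838 for VAMP2, -0.15 for TMEM107 and -0.22 for BORCS6. Under WIZ siRNA, where 0.508% of all probes passed, none did (0 at an unadjusted p below 0.05), with ratios between 0.11 and 0.24.

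Under G9a siRNA all 4 fell, where 33.8% of all probes changed. BORCS6 fell by 1.10 (SE 0.18, adjusted p = 0.00366), PER1 by 0.91 (SE 0.194, adjusted p = 0.00766), TMEM107 by 0.75 (SE 0.247, adjusted p = 0.0419) and VAMP2 by 0.72 (SE 0.0956, adjusted p = 0.00317; limma, n = 2). None of these 4 calls held without G9a siRNA replicate 2, and that of TMEM107 was lost in 7 of 9 fits without 1 replicate. With a dye term the G9a siRNA calls of PER1, TMEM107 and VAMP2 were lost, and that of BORCS6 was kept. VAMP2 then stood at 0.10 under G9a siRNA. On the Cy5 arrays alone VAMP2 stood at -1.25 under WIZ siRNA, against 0.11 over both orientations. PER1 also read -0.85, -0.29 and -0.72 in UNC0638 replicates 3 to 5, on set 2, beside 0.0907 and -0.21 in replicates 1 and 2, on set 1.

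**Figure D4:**
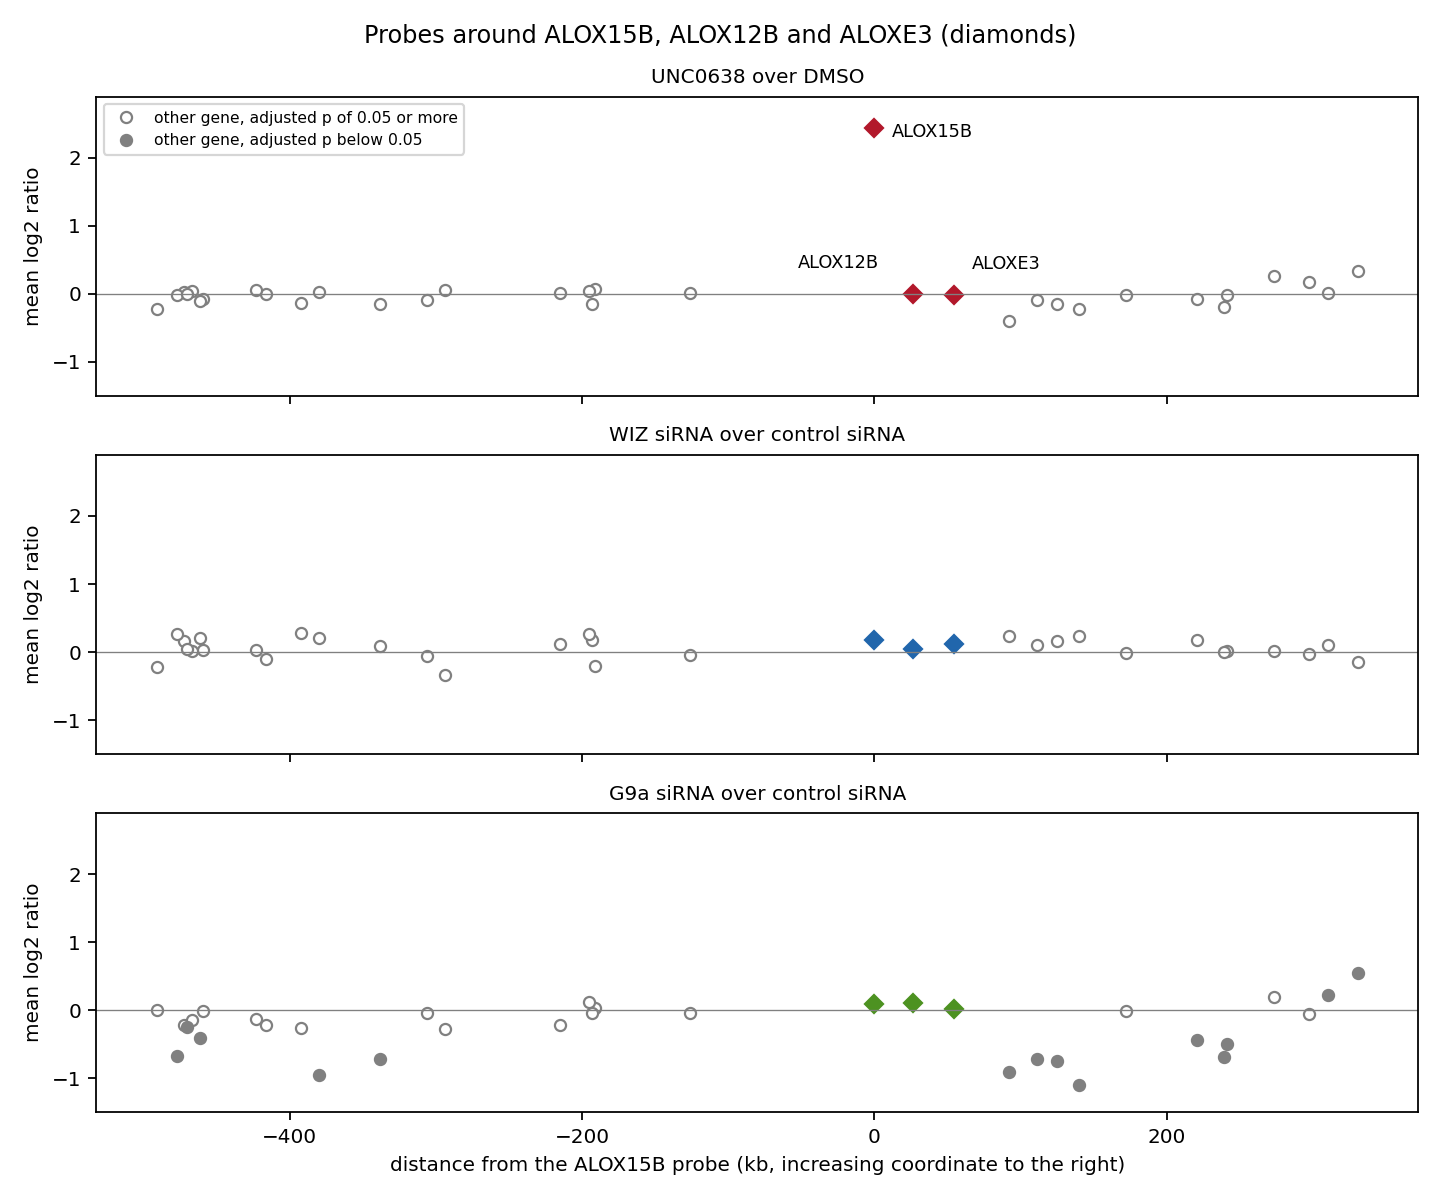
Mean log2 ratio of treated over control RNA against distance in kb from the ALOX15B probe, for the 3 clustered lipoxygenase probes (diamonds) and 31 probes of other genes within 500 kb of them (circles, filled where adjusted p was below 0.05). Under UNC0638 ALOX15B stands at 2.44 while all other points lie between -0.40 and 0.33.

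Within 500 kb of these 3 probes, 0 of 31 other probes passed under UNC0638 (limma; 8 at an unadjusted p below 0.05), with a lowest ratio of -0.40 and a highest of 0.33. Under WIZ siRNA, where 0.508% of all probes passed, 0 of 31 did (3 at an unadjusted p below 0.05). Under G9a siRNA 2 of the 31 rose and 12 fell. Around all 6 probes with coordinates, 15 tested probes lay within 100 kb, of which 0 passed under UNC0638 (4 at an unadjusted p below 0.05), 0 under WIZ siRNA (2 at an unadjusted p below 0.05) and 8 fell under G9a siRNA. Within 500 kb of these 6, 87 were tested, of which 1 rose and 2 fell under UNC0638 (3.24% of all probes changed), 0 passed under WIZ siRNA (14 at an unadjusted p below 0.05), and 8 rose and 37 fell under G9a siRNA (15.0% of all probes rose and 18.8% fell).

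Many probes carry no coordinates in the files, so the genes that flank the cluster in the RefSeq gene order were added after the values were seen. GUCY2D, a guanylate cyclase of photoreceptors and the nearest gene on the array to one side of ALOX15B, stood at 0.0008 under UNC0638 (adjusted p = 0.995). CNTROB, a centriole protein beyond it, stood at -0.10 under UNC0638 (adjusted p = 0.429) and fell by 0.49 under G9a siRNA (SE 0.108, adjusted p = 0.0087). The CNTROB call was lost with a dye term and with the GC trend removed. HES7, a transcriptional repressor of the segmentation clock and the next gene on the array after ALOXE3, fell by 0.37 under UNC0638 (SE 0.0548, adjusted p = 0.00661; limma, n = 5). Its replicates read -0.29, -0.44, -0.34, -0.56 and -0.25, all below 0. The HES7 value was -0.36 within set 1 (adjusted p = 0.013) and -0.38 within set 2 (adjusted p = 0.127).

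The 5 genes whose pattern over the 9 replicates was most like that of ALOX15B were VWF, FHAD1, AMBN, NFASC and KRTAP20-2, by Pearson's r of 0.986, 0.983, 0.981, 0.977 and 0.975. These are descriptions over 9 points that share their arrays with ALOX15B, and in each gene the 5 UNC0638 points are high and the 4 siRNA points low. VWF, the von Willebrand factor of endothelium and platelets, ran from 0.35 to 0.76 over the UNC0638 replicates. FHAD1 ran from 0.97 to 1.45, and its other tested probe averaged 1.40 beside 1.22. AMBN, the enamel protein ameloblastin, ran from 0.60 to 1.06, and KRTAP20-2, a keratin-associated protein of hair, from 0.47 to 1.22. NFASC, the axonal adhesion protein neurofascin, ran from 0.48 to 1.14 on this probe, while its 2 other probes averaged 0.19 and 0.43. VWF was well above background on 5 of 7 arrays in UNC0638 RNA and 3 of 7 in DMSO RNA, and the other 4 on all 7 in both. In the RefSeq table they lie on chromosomes 12, 1, 4, 1 and 21, none on chromosome 17.

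**Figure D5:**
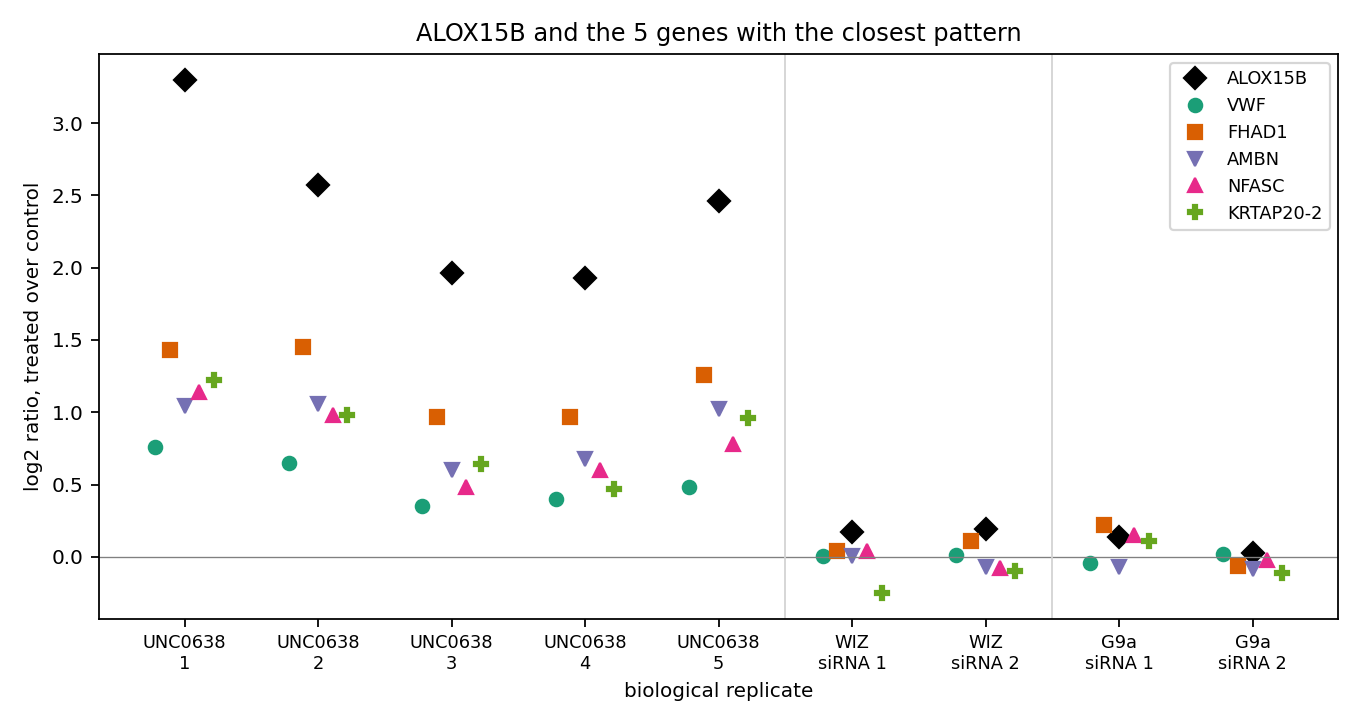
Log2 ratio of treated over control RNA in each of the 9 biological replicates for ALOX15B (diamonds) and the 5 genes with the closest pattern. All 6 are high in UNC0638 replicates 1 to 5, ALOX15B the most, and lie between -0.25 and 0.22 in the 4 siRNA replicates.

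The wider pathway of lipoxygenase substrates and products was read from 7 lists with 99 tested genes. With UNC0638, 1 of the 99 rose and 3 fell, 4.04% beside 3.24% of all probes. LTC4S, the synthase of leukotriene C, was the 1 gene of the leukotriene list (10 tested) that fell, by 0.34 (SE 0.0685, adjusted p = 0.0305), with replicates from -0.62 to -0.11. In the cyclooxygenase list (12 tested), 2 genes fell: PTGDS, a prostaglandin D synthase, by 0.28 (adjusted p = 0.0252), and CBR3, a carbonyl reductase, by 0.26 (adjusted p = 0.0323). In the cytochrome P450 and epoxide list (10 tested), EPHX2, the soluble epoxide hydrolase, rose at 0.24 (SE 0.0472, adjusted p = 0.0277). Each of these 4 calls was lost when UNC0638 replicate 1 was left out, and also without either WIZ siRNA replicate. The lists of arachidonate supply (26 tested), hydroperoxide reduction (9), eicosanoid receptors (17) and epidermal barrier partners (15) held 0 calls under UNC0638, with 11, 4, 4 and 4 genes at an unadjusted p below 0.05. ALOX5AP, the partner of ALOX5, was well above background on 2 of 7 arrays in either RNA and was not tested.

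Under WIZ siRNA, where 0.508% of all probes passed, 0 of the 99 pathway genes did (limma, 10 at an unadjusted p below 0.05). Under G9a siRNA 19 rose and 26 fell, 45.5% beside 33.8% of all probes, and all these calls were lost without G9a siRNA replicate 2. In the supply of arachidonic acid, 6 rose and 7 fell, among them DAGLB, a diacylglycerol lipase, which fell by 1.08, MBOAT7, which returns arachidonate to phosphatidylinositol, which fell by 0.98, and ACSL3, an acyl-CoA synthetase, which rose at 1.04. Among the genes that reduce lipid hydroperoxides, 1 rose and 4 fell: GPX4, which reduces the products of lipoxygenases in membranes, fell by 0.80 (SE 0.139, adjusted p = 0.00405) and GPX3 by 0.68, while the glutathione transferase gene GSTA4 rose at 0.60.

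In the leukotriene list under G9a siRNA, 1 gene rose and 2 fell. GGT1, which trims leukotriene C, fell by 0.99, DICER1, the RNA nuclease that binds ALOX5, rose at 0.64, and LTC4S, not well above background in G9a siRNA RNA, was at least 1.34-fold lower (adjusted p = 0.00881), although its ratio turned to 0.19 with the GC trend removed. In the cyclooxygenase list 4 rose and 3 fell. They were led by PTGES2, a prostaglandin E synthase, which fell by 1.10, and by PTGS2, the inducible cyclooxygenase, and PTGR2, a prostaglandin reductase, which rose at 0.72 and 0.71.

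In the cytochrome P450 and epoxide list 2 rose and 2 fell: CYP4V2 and CYP2U1, fatty acid hydroxylases, rose at 0.75 and 0.54, and EPHX1, the microsomal epoxide hydrolase, fell by 0.62. Of the eicosanoid receptors 3 rose and 4 fell, with the prostaglandin E receptor gene PTGER4 at 0.82, the nuclear receptor gene PPARD at -0.52 and the leukotriene B receptor gene LTB4R at -0.46. Of the epidermal barrier partners 2 rose and 4 fell: ELOVL4, which makes very long fatty acids, rose at 1.16, and the fatty acid transporter gene SLC27A4 fell by 0.86.

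Markers of the cell types known for lipoxygenases were read beside ALOX15B. Of 8 tested myeloid markers, 2 rose with UNC0638, where 3.24% of all probes changed (1.57% higher, 1.67% lower): the growth factor receptor gene CSF1R at 1.16 (SE 0.0696, adjusted p = 0.000125) and the lectin gene CD33 at 1.04 (SE 0.0755, adjusted p = 0.000234). Both were well above background on 7 of 7 arrays in UNC0638 RNA and 5 of 7 in DMSO RNA. CSF1R read 1.24, 1.44, 1.03, 1.03 and 1.04 in replicates 1 to 5, and CD33 read 1.27, 1.24, 0.83, 0.83 and 1.04. The summed linear level of the 11 myeloid markers on the array was 2451 to 2942 in UNC0638 RNA and 2153 to 2535 in DMSO RNA. On at least 50% of arrays, 6 of these 11 were well above background in UNC0638 RNA and 8 in DMSO RNA. CD163, FCGR3A and MPO were below this in both RNAs, and AIF1 and ITGAM in UNC0638 RNA only. UNC0638 RNA was in Cy5 on more arrays than DMSO RNA, and fewer probes are well above background in Cy5. Dye and treatment cannot be told apart in these counts. The part of these markers in the ALOX15B rise was not tested.

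Of 8 tested keratinocyte markers, 1 rose with UNC0638 (SFN, an epithelial checkpoint protein, 0.32, adjusted p = 0.0153), while KRT1, KRT5, KRT14 and LORICRIN were among 8 of 12 on the array that were not well above background. Of 10 platelet markers, 1 fell (GP1BB, a subunit of the von Willebrand factor receptor, by 0.56, adjusted p = 0.00232). Of 10 prostate and sebaceous markers, 1 rose (AWAT1, a wax synthase of sebaceous glands, 0.39, adjusted p = 0.00363), on a probe well above background on 2 of 7 arrays in each RNA. Of 12 HEK293 markers, 1 fell (LHX1, a kidney developmental regulator, by 0.53, adjusted p = 0.0272). Under WIZ siRNA, where 0.508% of all probes passed, 1 of the 12 HEK293 markers changed. This was the neurofilament gene INA, which fell by 0.75 (limma, adjusted p = 0.0129). No tested marker of the other 4 lists passed (limma). Of these markers 2, 1 myeloid and 1 prostate or sebaceous, had an unadjusted p below 0.05.

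Under G9a siRNA, where 15.0% of all probes rose and 18.8% fell, 1 of 8 keratinocyte markers fell (KRT10, by 1.13) and 2 of 8 myeloid markers fell. CD14 fell by 0.34, and TYROBP, not well above background in G9a siRNA RNA, was at least 1.89-fold lower by mean levels. The TYROBP replicates read from -1.19 to -0.65, so 1.89-fold is not a limit that each replicate met. The calls of CD14, TYROBP and the platelet marker ITGA2B were lost with a dye term and within set 2. Of 10 platelet markers 3 fell, with NBEAL2 at -0.79, GP1BB at -0.78 and ITGA2B at least 1.31-fold lower by mean levels. The ITGA2B replicates read from -0.43 to -0.35, and the ITGA2B ratio turned to 0.013 with the GC trend removed. Of 10 prostate and sebaceous markers 3 rose, among them SCD at 0.86 and PLIN2 at 0.22. The PLIN2 call was lost in 8 of 13 other settings, among them the dye term and set 2 alone. Of 12 HEK293 markers 2 rose and 2 fell, with EYA1 at 0.87, NCAM1 at 0.70 and LHX1 at -0.55.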

How the data were processed

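Expression was measured on 13 Agilent 8x60K 2-colour arrays of HEK293T RNA. Spot and local background intensities were deposited by the authors as pixel means and medians for both dyes, uncorrected, per the file headers. Beside them stands a log2 ratio that the authors computed after background subtraction and normalization, per the file headers. In the authors' deposited series table, log10 ratios ran as control over treated on 8 arrays (r with the array's own file between -0.918 and -0.877) and the other way on 5 (between 0.925 and 0.971). They were turned to 1 direction, and their centring (column medians of -0.01 to 0.00818) is unknown. The number of arrays limits the precision.

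Background was corrected with normexp (offset 50) on 62976 spots, and loess within arrays gave the 4259 control spots weight 0. Spots of a probe were averaged. "Well above background" means over the background median by more than 2.6 of its SDs. Probes reaching this on at least 50% of arrays of any of the 6 RNA groups were tested. On every array fewer probes reached it in Cy5 than in Cy3. On the array of G9a siRNA replicate 1 these were 50% and 57.9%. Levels are channel values after Aquantile scaling. A fold against a dim RNA group is given as "at least", from channel values open to dye bias. It comes from mean levels and is not the limit of an interval.

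The 9 biological replicates entered 1 limma fit (R 4.3.3, limma 3.58.1) with a mean per treatment (6 residual and 3.28 prior degrees of freedom), adjusted by Benjamini-Hochberg over 34619 probes. Calls are adjusted p below 0.05, and 95% intervals come from this fit. The fit was tested on simulated data with independent noise and no dye or array set effect, so that test does not cover these effects. Lists used the brightest tested probe of a gene. Named are all members, the siRNA targets, genes with a probe within 100 kb of the clustered probes, at most 3 called genes per list and treatment, and the 5 closest patterns; a few genes that this rule takes are not reported here. Members and lists were chosen with earlier results of these data known. RefSeq accessions named 25419 probes and symbols or synonyms another 1547, 1625 kept the file's symbol, and 13814 had none. No slide was named, so the planned slide batch was replaced by the array set, defined by the lowest Cy3 background SD (4 or 5 in set 1, 11 in set 2).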

Additional observations from a re-analysis of the deposited data

Results flagged for a closer look

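ALOX5 differed between the siRNAs by the test of the difference itself, with G9a siRNA minus WIZ siRNA at 0.34 (limma, adjusted p = 0.0328), from 0.0093 under G9a siRNA and -0.33 under WIZ siRNA (n = 2 replicates each). On arrays with treated RNA in Cy5 alone, the difference was -0.0184 (adjusted p = 0.948).

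PTGDS had 1 UNC0638 replicate far from the others: replicate 3 read -0.50, and the other 4 lay between -0.25 and -0.20. This was 1 of 29 sets of 5 replicates examined for such a gap, and chance gives about 1 in 20. None of the 7 lipoxygenase probes showed such a gap over the UNC0638 replicates.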

How the results depend on the processing

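For the 7 lipoxygenase probes, 330 values under other settings kept direction and call, 8 gained a call, 4 lost one, 6 moved and 1 reversed; without 1 replicate, 248 kept both and 4 lost a call. ALOX15B under UNC0638 stayed between 2.12 and 2.94 over the settings whose fit held it. The fit on the series table did not hold ALOX15B, which lacks a value there on 2 WIZ siRNA arrays. On the UNC0638 arrays, the series table put ALOX15B between 2.325 and 4.053 as a log2 ratio. The cause of the changes below was not tested. ALOX5 in G9a siRNA minus WIZ siRNA (0.34) was 0.23 with median centring, 0.12 with a dye term, 0.37 with the array set as a term, 0.10 with the GC trend removed, -0.0184 on Cy5 arrays alone and 0.31 to 0.37 without 1 replicate. ALOX5 under WIZ siRNA passed at -0.81 in the series table, and at -0.33 with a dye term, within set 1 and on its own replicates, where ALOX15B passed at 0.18. ALOX5 under UNC0638 was -0.0822 with a dye term, 0.0881 on Cy5 arrays alone and -0.055 with the GC trend removed. Reversed were VAMP2 under G9a siRNA with a dye term (0.10) and under WIZ siRNA on Cy5 arrays alone (-1.25), and, under G9a siRNA with the GC trend removed, LTC4S (0.19), ITGA2B (0.013) and VWF (0.30).

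Probes called were 1122 under UNC0638, 176 under WIZ siRNA, 11702 under G9a siRNA and 7052 in G9a siRNA minus WIZ siRNA. Under UNC0638 they were 550 with the authors' log2 ratio, 602 with the series table, 2907 on Cy5 arrays alone, 425 on its own replicates and 32 within set 2. Under WIZ siRNA they were 113 with no background correction, 29 with the authors' log2 ratio, 111 with the series table, 1204 with a dye term, 2058 on Cy5 arrays alone, 8868 on its own replicates and 3508 within set 1. Under G9a siRNA they were 5283 with a dye term and 7088 within set 2. In G9a siRNA minus WIZ siRNA they were 4585 with the authors' log2 ratio, 4443 with the series table, 684 on Cy5 arrays alone, 13429 on their own replicates, 2 with the array set as a term and 14145 with a replicate block. For the deviations of same-numbered replicates, r was -0.0315 for WIZ with G9a siRNA, -0.00765 and 0.0132 for UNC0638 with WIZ siRNA, and 0.365 and -0.277 for UNC0638 with G9a siRNA. The numbers are not read as pairs.

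Without 1 replicate, calls were 619 to 960 under UNC0638 (657 without either WIZ siRNA replicate, 619 without UNC0638 replicate 4) and 0 to 13522 under G9a siRNA (7187 without replicate 1, 0 without replicate 2). Under WIZ siRNA they were 17 to 368: 110, 102, 368 and 93 without UNC0638 replicates 1 to 4, 42 and 17 without WIZ siRNA replicates 1 and 2, and 77 without either G9a siRNA replicate. In the difference they were 1 to 10211: 25 and 4 without WIZ siRNA replicates 1 and 2, and 4589 and 1 without G9a siRNA replicates 1 and 2.

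Pathway calls under UNC0638 (4) were 2 with no background correction, 0 with the authors' log2 ratio, 2 with the series table, 12 on Cy5 arrays alone, 0 on its own replicates, 8 with the array set as a term, 0 within set 2 and 0 to 3 without 1 replicate. Under WIZ siRNA (0) they were 5 with a dye term, 8 on Cy5 arrays alone, 37 on its own replicates and 12 within set 1. Under G9a siRNA (45) they were 21 with a dye term, 28 within set 2 and 0 to 46 without 1 replicate. Calls within 100 kb of a member were 2 under UNC0638 on Cy5 arrays alone. Under WIZ siRNA they were 2 with a dye term, 3 on Cy5 arrays alone, 6 on its own replicates and 3 within set 1. Under G9a siRNA they were 2 with a dye term, 5 within set 2 and 0 to 9 without 1 replicate. Calls within 500 kb under UNC0638 were 15 on Cy5 arrays alone, 5 with the array set as a term, 0 within set 2 and 2 to 4 without 1 replicate. Under WIZ siRNA they were 2 with a dye term, 13 on Cy5 arrays alone, 35 on its own replicates and 15 within set 1. Under G9a siRNA they were 11 with a dye term, 25 within set 2 and 0 to 50 without 1 replicate.

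All 39 calls under G9a siRNA that the naming rule takes were lost without its replicate 2. The UNC0638 calls of CBR3, EPHX2, LHX1, LTC4S, PTGDS and SFN were lost without some replicate, and those of CSF1R and CD33 in no setting run. Both named calls under WIZ siRNA (INA and WIZ) were lost without replicate 1. Only 43.75% of probes have a GC value, so the GC setting gives no counts. The low signal over background limits ALOX12 and ALOX15 in all groups and ALOXE3 on set 2.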
